A study of Rattus norvegicus with 47 samples.

Results

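Lrp2, Cubn, Amn, Dab2 and Clcn5 are the 5 genes described here, chosen by symbol from the 22525 named genes of the count table as the core of the receptor system by which the kidney's proximal tubule takes up filtered protein. The choice used no threshold on their values, though earlier results of these data were known when it was made, and all 5 passed the filter on low counts that left 15868 genes for testing. In the first stretch of the nephron behind the glomerulus, epithelial cells bind filtered albumin, vitamin carriers and hormones at the brush border and carry them into endosomes. The giant receptor megalin, encoded by Lrp2, and the peripheral membrane protein cubilin, encoded by Cubn, bind the cargo, and cubilin reaches the surface only as a complex with amnionless, the Amn product. Dab2 is the adaptor that binds the cytoplasmic tail of megalin and links it to clathrin, and Clcn5 encodes ClC-5, the chloride/proton exchanger of the endosome, whose loss in humans causes Dent disease with protein in the urine.

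The kidneys came from Rattus norvegicus, 12 months after a metal cylinder had been embedded. The metal was tungsten (W), cobalt (Co) or aluminium (Al), or else lead (Pb) or depleted uranium (DU), and control rats received tantalum (Ta). Ta is named in the series description as the inert metal and served as the reference, so the controls carried a pellet too. The labels give no strain, sex, age or genotype and each library has its own animal number, and there were 7 Pb libraries beside 8 of every other metal. All 47 libraries were made from total RNA of whole kidney tissue, so each value is an average over every cell type in the piece taken, and fewer proximal tubule cells cannot be told apart from less RNA per cell.

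Library totals lay between 21604755 and 35775818 counts (median 26363810), with 14538 to 18015 genes detected. At this depth Lrp2 was counted 6454 to 90843 times in a library and Clcn5, the rarest of the 5, between 26 and 645 times. Values are given in CPM, counts divided by the library total after scaling by edgeR's TMM factor, in the usual unit, and differences as log2 fold changes of a metal against Ta with their standard error (SE). A gene is called higher or lower at an adjusted p under 0.05 by edgeR's quasi-likelihood F test with Benjamini-Hochberg adjustment over all 15868 genes, from 1 fit over the 47 libraries. CPM are not corrected for transcript length, so levels are compared between groups and not between genes.

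The 18 markers of the proximal tubule's S1 and S2 segments summed to 10155 CPM or more in all libraries but DU replicate 6, which had 1769 CPM and stood apart. DU replicate 6 had the lowest mean of the S1 and S2 markers, 5.63 log2 CPM, against 6.35 or more in the other 46 libraries, and also the highest mean of 12 tubule injury genes, 7.84 log2 CPM. W replicates 5 to 8 had S1 and S2 marker means of 6.36, 7.76, 7.10 and 7.15 log2 CPM, against 8.55 to 8.88 in W replicates 1 to 4. The libraries also differed in a size balance, which is the average log2 CPM over 38 ribosomal protein genes less the average over 36 genes encoding very large proteins, neither list holding any of the 5 genes. This balance averaged 1.87 with W, 2.29 with Co, 2.42 with Al, 3.21 with Pb, 2.26 with DU and 1.45 with Ta, and every Co, Al, Pb and DU library lay above every Ta library, so that it and the metal cannot be fully told apart.

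Lead gave the clearest picture of the 5 genes. In Pb kidneys the receptor gene Lrp2, its adaptor Dab2 and the exchanger gene Clcn5 fell, Amn rose, and Cubn fell by the smallest amount. That Cubn call was lost in most refits. With Al the same genes apart from Lrp2 passed the test in the same directions, with Co only Clcn5 did, and with W and DU none did. The genes did not move as 1 block, since Amn was higher where its partner Cubn was lower. None of these calls against Ta held with the size balance as a covariate, a fit in which Lrp2 and Clcn5 changed sign with Co, Al, Pb and DU.

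Read against the whole table, the counts of members called were as follows. With Pb, all 5 genes passed, 1 higher and 4 lower, where 53.7% of all tested genes passed, 24.5% higher and 29.2% lower. With Al, 4 of 5 passed, 1 higher and 3 lower, where 25.2% of all tested genes passed, 12.8% higher and 12.4% lower. With Co, 1 of 5 passed, where 25.8% of all tested genes did and 12.2% were lower. With W none passed by edgeR at a background of 1.78% (283 genes, and 3448 at an unadjusted p under 0.05), and with DU none at 15.3% (2424 genes, and 4533 at an unadjusted p under 0.05). Of the 5 genes, Amn with DU was under an unadjusted p of 0.05 (0.0293) and none was with W. limma voom with sample quality weights called 1 of the 5 with DU, Amn, and 0 with W, and DESeq2 called 0 with both.

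Ranges that did not overlap Ta were seen for Amn and Dab2 with Al, where 4.88% of all tested genes showed this (3.49% above Ta and 1.4% below). They were seen for Amn, Dab2 and Clcn5 with Pb, where 26.9% did (13% above and 13.9% below). The median log2 fold change of the 5 genes was 0.01 with W, -0.21 with Co, -0.43 with Al, -0.79 with Pb and -0.13 with DU, beside medians of -0.03, -0.07, -0.04, -0.07 and -0.01 over all tested genes. A majority of all genes passed with Pb, so the share alone says little about the 5 genes there.

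**Figure D1:**
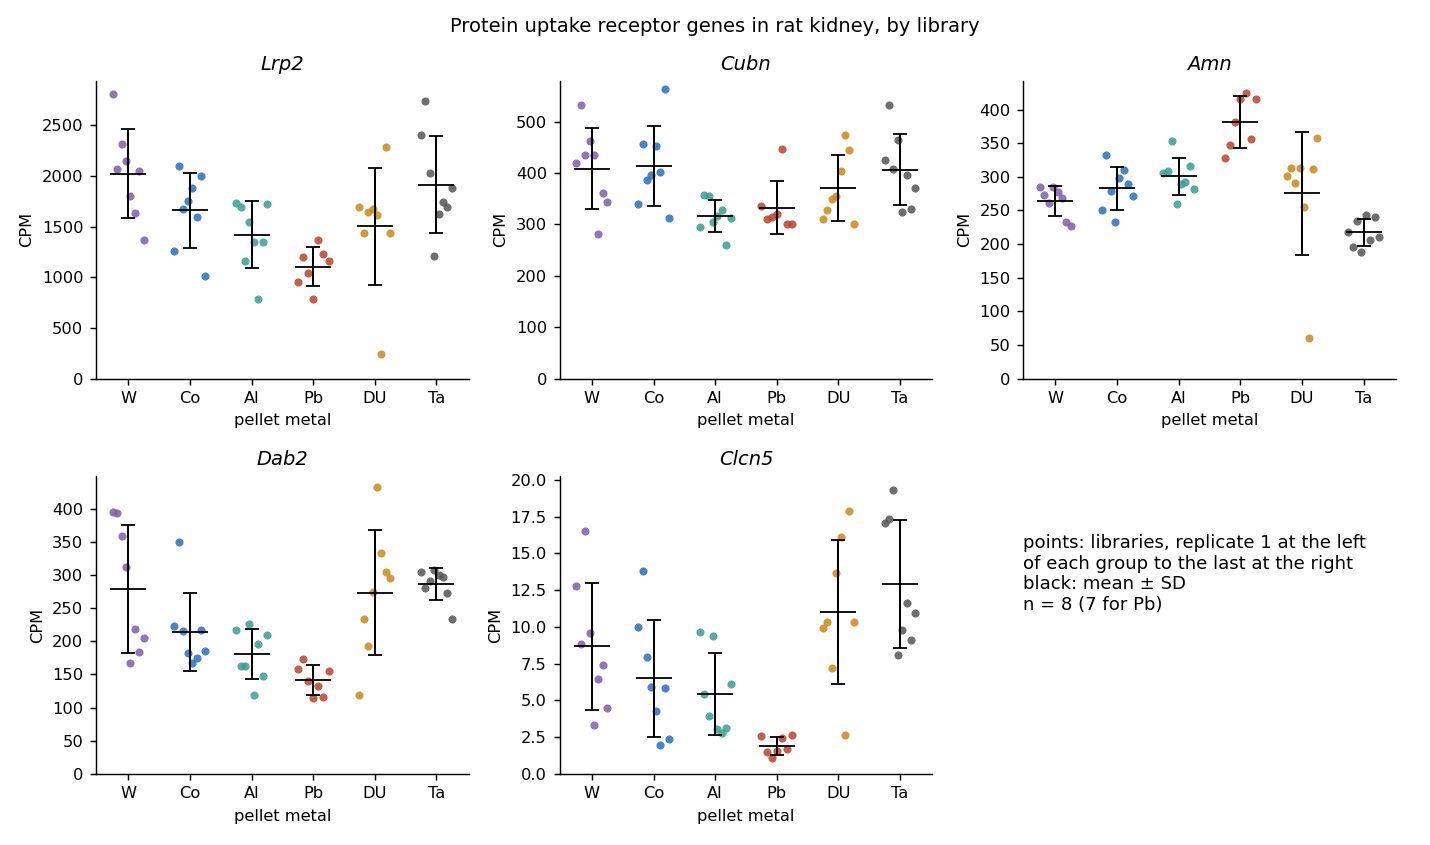
CPM of each of the 5 genes (vertical axes, linear, one panel per gene) by pellet metal (horizontal axis, metals left of Ta). Points are libraries, and black marks are the mean ± SD of 7 Pb libraries and 8 libraries of each other metal. Amn in every Al and Pb library lies above every Ta library, Dab2 in every Al and Pb library lies below every Ta library, and Clcn5 in Pb lies between 1.09 and 2.62 CPM.

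Megalin itself was the most variable among Ta kidneys next to Clcn5. Lrp2 ranged over 1371, 2055 and 2807 CPM with W, over 1017, 1715 and 2097 CPM with Co and over 784, 1449 and 1730 CPM with Al (lowest, median and highest of 8 libraries). It ranged over 785, 1158 and 1365 CPM with Pb (7 libraries) and over 238, 1630 and 2287 CPM with DU, against 1207, 1811 and 2739 CPM with Ta. The groups overlapped in every comparison, although 5 of 7 Pb libraries lay below the lowest Ta library and all 7 lay below the Ta median. The mean was 1106 ± 194 CPM with Pb and 1914 ± 477 CPM with Ta (SD, n = 7 and 8), a log2 fold change of -0.79 ± 0.23 (SE) with an adjusted p of 0.00325 by edgeR. With Al all 8 libraries lay below the Ta median and the log2 fold change was -0.43 ± 0.22, which did not pass the test (adjusted p = 0.145). Without DU replicate 6, whose spread enters every comparison through the shared fit, the Al value was -0.41 with an adjusted p of 0.0446. With Co, DU and W the log2 fold changes were -0.21, -0.35 and 0.08, with adjusted p of 0.503, 0.304 and 0.857.

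DU replicate 6 set the wide range of the DU group for Lrp2. Its 238 CPM lay below every other library of the series, and the next DU library had 1434 CPM. Without it the DU mean was 1684 ± 286 CPM (SD, n = 7), or 87.96% of the Ta mean, against 78.5% with it. The same library had 60.9 CPM of Amn and 2.62 CPM of Clcn5, the lowest DU values of both, while its Cubn at 474 CPM was the highest of the DU group and its Dab2 at 333 CPM the second highest.

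The cubilin subunits diverged. Cubn ranged over 281, 427 and 533 CPM with W, over 312, 399 and 564 CPM with Co and over 261, 314 and 357 CPM with Al. It ranged over 301, 315 and 447 CPM with Pb and over 302, 352 and 474 CPM with DU, against 325, 403 and 532 CPM with Ta, so all groups overlapped Ta. In 5 of 8 Al libraries and 5 of 7 Pb libraries Cubn was below the lowest Ta library. It fell with Al by 0.36 ± 0.12 (SE) in log2 units, at an adjusted p of 0.0199 by edgeR, with a mean of 316 ± 31.4 CPM, against 407 ± 68.9 CPM with Ta (SD, n = 8 each). It fell with Pb by 0.29 ± 0.12 (SE), at an adjusted p of 0.0426, with a mean of 333 ± 51.7 CPM (SD, n = 7).

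The Cubn calls depended on single libraries, and the Pb call also on the processing. The Pb call was lost with RLE factors, with no filter, with the strict filter, with DESeq2 and with only the groups compared. It was also lost with either covariate (the S1 and S2 marker mean or the size balance) and without Ta replicates 4 and 6. The Al call was lost without Al replicate 7, Ta replicate 2 or Ta replicate 4 (adjusted p of 0.0505 to 0.0912), and the Pb call without any of Pb replicates 1, 2, 3, 4, 6 and 7 or Ta replicates 1, 2, 3, 4, 6 and 8 (adjusted p of 0.0506 to 0.153). In Pb kidneys replicate 5, with 447 CPM, lay above the other 6, which had 301 to 337 CPM. With W, Co and DU the log2 fold changes of Cubn were 0.01, 0.02 and -0.13, and the adjusted p were 0.977, 0.892 and 0.498.

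Amn moved the other way. Its values were 226, 271 and 285 CPM with W, 233, 284 and 333 CPM with Co and 260, 299 and 354 CPM with Al (lowest, median and highest). They were 328, 382 and 424 CPM with Pb and 60.9, 307 and 358 CPM with DU, against 189, 214 and 244 CPM with Ta. Every Al library and every Pb library was above every Ta library, as were 6 of 8 with W, 7 of 8 with Co and 7 of 8 with DU, and the remaining DU library was replicate 6. Amn rose with Pb to 381 ± 38.3 CPM, against 217 ± 20.6 CPM with Ta (SD, n = 7 and 8), which was 1.76-fold higher with a log2 fold change of 0.81 ± 0.16 (SE) and an adjusted p of 2.61e-05 by edgeR. It rose with Al to 301 ± 27.5 CPM (SD, n = 8), a log2 fold change of 0.47 ± 0.15 with an adjusted p of 0.0195. Without Ta replicates 4 and 6 the Al value was 0.45 with an adjusted p of 0.0522, and the call was lost. With all Ta libraries but no DU replicate 6 the Al value was 0.50 (adjusted p = 2.35e-06 by edgeR). That fit was chosen after the value of DU replicate 6 was seen.

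With W, Co and DU the log2 fold changes of Amn were 0.28 ± 0.15, 0.38 ± 0.15 and 0.34 ± 0.15 (SE), and the adjusted p were 0.272, 0.0579 and 0.124 by edgeR. These p-values depended in part on DU replicate 6, whose 60.9 CPM widened the spread that all comparisons share. Without that library the SE of Amn fell to 0.08 in each of these comparisons and Amn was called higher with W (0.31, adjusted p = 0.0144), Co (0.42, adjusted p = 6.96e-05) and DU (0.53, adjusted p = 3.21e-06), a fit chosen for W, Co, Al and Pb after that library's value was seen. With DU replicate 6 kept, the Co call was also gained without Co replicate 1 or 4 or Ta replicate 3 or 5, with adjusted p of 0.0373 to 0.0487. It was gained as well with RLE factors, the strict filter, voom, DESeq2 or the S1 and S2 marker mean as a covariate. It was not gained with no filter, replicate numbers as a block, the size balance as a covariate or without Ta replicates 4 and 6. Without DU replicate 6 the DU mean was 306 ± 31.0 CPM (SD, n = 7), or 140.9% of the Ta mean.

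The promoter windows of these 2 subunit genes are shown because cubilin and amnionless form 1 receptor while their transcripts differed in direction. Each is the 250 bases before the gene's start in RefSeq's rat assembly GRCr8, 5′ to 3′ on the gene's own strand, with any GC box letters (GGGCGG, searched on both strands) in capitals. Amn lies at chr6:136132317-136132566 on the plus strand and Cubn at chr17:81501695-81501944 on the minus strand.
Amn: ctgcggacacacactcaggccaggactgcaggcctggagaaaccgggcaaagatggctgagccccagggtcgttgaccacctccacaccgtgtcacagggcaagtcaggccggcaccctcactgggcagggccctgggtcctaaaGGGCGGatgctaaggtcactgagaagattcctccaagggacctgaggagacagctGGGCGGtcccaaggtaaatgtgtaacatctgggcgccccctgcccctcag
Cubn: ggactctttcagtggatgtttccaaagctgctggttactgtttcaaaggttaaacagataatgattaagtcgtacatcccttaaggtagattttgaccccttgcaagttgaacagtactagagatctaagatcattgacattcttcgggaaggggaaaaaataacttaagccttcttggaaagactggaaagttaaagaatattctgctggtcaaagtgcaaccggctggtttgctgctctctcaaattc
The Amn window held 62.8% G and C and 2 GC boxes, and the Cubn window 40% and none. The median over all 33469 windows of the table was 51.2%, and 30.5% of them held a GC box. The Lrp2 window held 64.4% G and C with 2 GC boxes, the Dab2 window 47.6% with none, and the windows of the 2 annotated Clcn5 starts 60% with 1 and 48% with none. Matching letters describe the window and are no evidence of a bound factor.

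Because Cubn and Amn are counted in the same libraries, their CPM ratio compares them within each kidney, free of the library total. How many other gene pairs separate from Ta in such a ratio was not counted. The size balance, which also set all Al and Pb libraries apart from Ta, was not taken out of the ratio. The ratio averaged 1.55 ± 0.253 with W, 1.47 ± 0.254 with Co, 1.06 ± 0.117 with Al and 0.876 ± 0.124 with Pb, against 1.91 ± 0.485 with Ta (SD). All 8 Al libraries and all 7 Pb libraries lay below the lowest Ta ratio of 1.33. In DU kidneys the median was 1.17 and 5 of 8 libraries lay below every Ta library, but replicate 6 reached 7.78. The ratio of Lrp2 to Amn averaged 4.76 ± 1.27 with Al and 2.92 ± 0.545 with Pb, against 8.89 ± 2.56 with Ta (SD). All Al and Pb libraries, 7 of 8 DU libraries and 6 of 8 Co libraries were below the lowest Ta value of 6.40. Both ratios share Amn, which alone was higher in all Al and Pb libraries than in every Ta library, so they are not independent. The ratio of Lrp2 to Cubn overlapped Ta with every metal. It averaged 4.54 ± 1.17 with Al, 3.35 ± 0.61 with Pb and 4.74 ± 0.93 with Ta (SD).

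**Figure D2:**
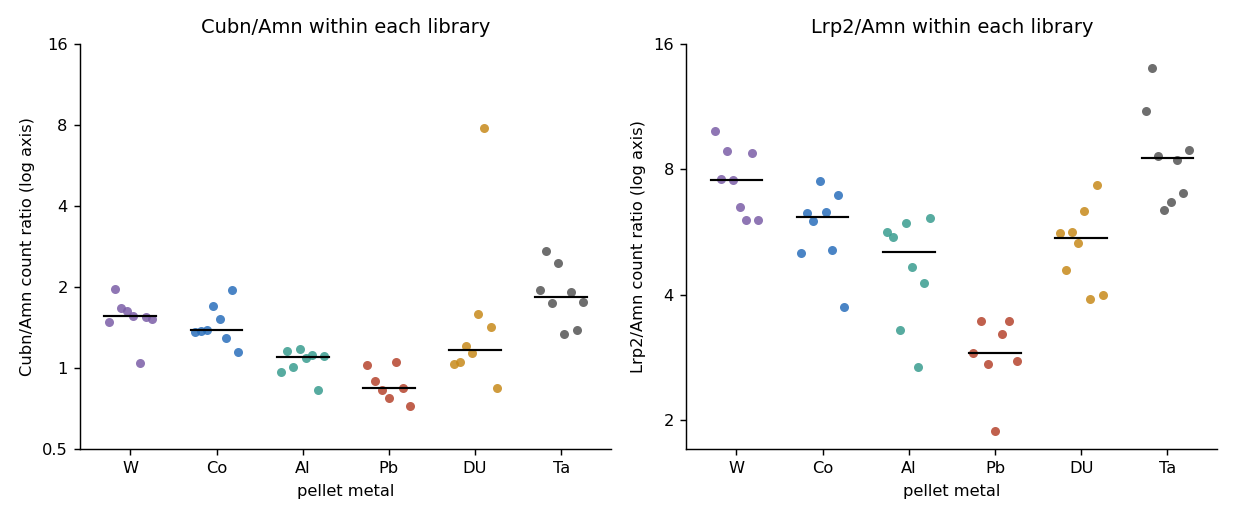
Ratio of Cubn to Amn and of Lrp2 to Amn in each library (vertical axes, log scale) by pellet metal (horizontal axis, metals left of Ta). Points are libraries and black lines are group medians. The Cubn to Amn and Lrp2 to Amn ratios of all Al and Pb libraries lie below all Ta libraries, and DU replicate 6 stands apart at 7.78 for Cubn to Amn.

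Dab2, the megalin adaptor, was the most even of the 5 genes among Ta kidneys. It ranged over 168, 265 and 394 CPM with W, over 167, 201 and 350 CPM with Co and over 119, 180 and 227 CPM with Al (lowest, median and highest). It ranged over 115, 140 and 174 CPM with Pb and over 119, 284 and 433 CPM with DU, against 234, 294 and 307 CPM with Ta. All Al and all Pb libraries lay below every Ta library, and so did 7 of 8 Co libraries, the exception being Co replicate 2 at 350 CPM. With Pb, Dab2 fell to 141.3 ± 22.3 CPM, against 286 ± 24.2 CPM with Ta (SD, n = 7 and 8), 2.02-fold lower with a log2 fold change of -1.02 ± 0.19 (SE) and an adjusted p of 1.70e-05 by edgeR. With Al it fell to 180 ± 37.8 CPM (SD, n = 8), a log2 fold change of -0.67 ± 0.18 with an adjusted p of 0.00637.

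With Co, 1 library ran against the other 7 in Dab2. The log2 fold change was -0.41 ± 0.18 (SE), with an adjusted p of 0.0859 by edgeR. Without Co replicate 2 it was -0.55 with an adjusted p of 0.0180. In W kidneys Dab2 fell into a high and a low set. W replicates 1 to 4 had 394, 394, 359 and 312 CPM, all above the highest Ta library, and W replicates 5 to 8 had 168, 218, 183 and 205 CPM, all below the lowest. These are the same libraries that differed in S1 and S2 markers, and the group's log2 fold change of -0.03 ± 0.18 (adjusted p = 0.933) averages over both sets. With DU the log2 fold change was -0.06 ± 0.18, with an adjusted p of 0.860.

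Clcn5, the endosomal exchanger, had the largest log2 fold change of the 5 genes with W, Co, Al and Pb, but not with DU. It ranged over 3.34, 8.12 and 16.5 CPM with W, over 1.95, 5.87 and 13.8 CPM with Co and over 2.77, 4.70 and 9.64 CPM with Al (lowest, median and highest). It ranged over 1.09, 1.66 and 2.62 CPM with Pb and over 2.62, 10.3 and 17.9 CPM with DU, against 8.09, 11.3 and 19.3 CPM with Ta. Every Pb library lay below every Ta library, as did 6 of 8 libraries with Co and with Al, 4 of 8 with W and 2 of 8 with DU. In Pb kidneys, 26 to 70 reads per library came from Clcn5, against 204 to 645 in Ta kidneys, so counting error is small beside the difference.

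With Pb, Clcn5 fell to 1.91 ± 0.608 CPM, against 12.9 ± 4.33 CPM with Ta (SD, n = 7 and 8), 6.75-fold lower with a log2 fold change of -2.76 ± 0.39 (SE) and an adjusted p of 7.71e-08 by edgeR. With Al it fell to 5.43 ± 2.78 CPM (SD, n = 8), a log2 fold change of -1.24 ± 0.34 with an adjusted p of 0.00646. With Co it fell to 6.51 ± 3.98 CPM (SD, n = 8), a log2 fold change of -0.98 ± 0.34 with an adjusted p of 0.0290. The Co call was lost without any 1 of Co replicates 5, 6, 7 and 8 or Ta replicates 1, 2 and 3, with adjusted p of 0.0510 to 0.0730. With W and DU the log2 fold changes were -0.57 ± 0.34 and -0.23 ± 0.34, and the adjusted p were 0.310 and 0.707.

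**Figure D3:**
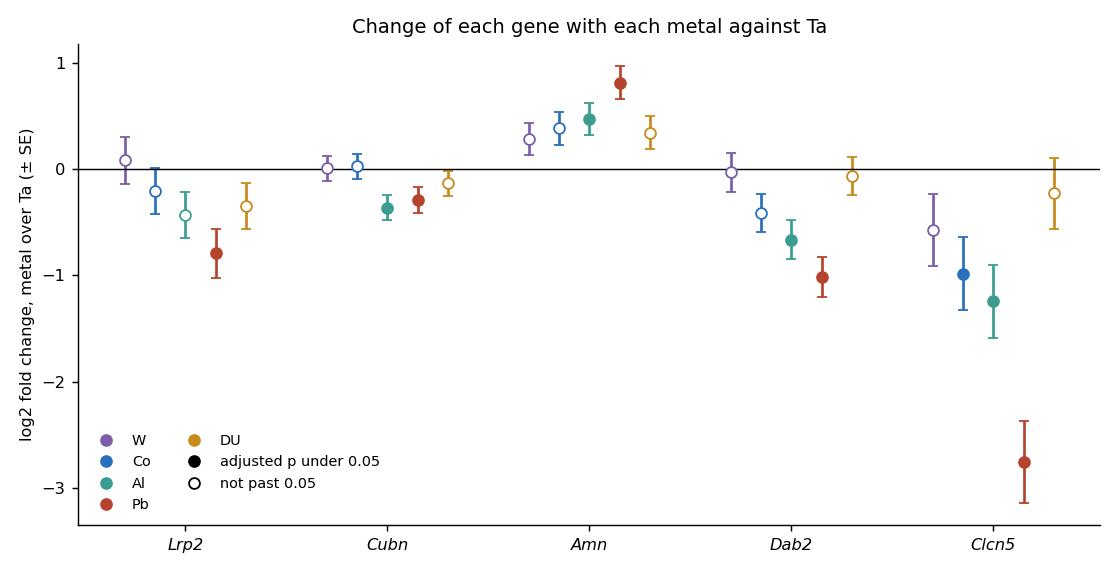
Log2 fold change of each gene in each metal against Ta (metals named left to right as W, Co, Al, Pb, DU), from edgeR's quasi-likelihood fit over 47 libraries. Points are estimates, bars are ± SE, and filled points passed an adjusted p of 0.05. All Pb points are filled, between -2.76 for Clcn5 and 0.81 for Amn, and all W and DU points are open.

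The metals other than Ta were also set against each other. Differences among W, Co, Al, Pb and DU passed the test for all 5 genes, where 53.2% of all tested genes did, with adjusted p of 0.0186 for Lrp2, 0.0132 for Cubn, 0.0253 for Amn, 0.000103 for Dab2 and 1.69e-05 for Clcn5 by edgeR. The call for Amn was lost without Pb replicate 4, 5 or 7, with adjusted p of 0.0599, 0.0623 and 0.0591. The call for Lrp2 was lost with the S1 and S2 marker mean as a covariate (adjusted p = 0.0695), and with the size balance as a covariate those for Lrp2, Cubn and Amn were lost (0.530, 0.0953 and 0.200). In the order of group means, Pb stood lowest for Lrp2, Dab2 and Clcn5 and highest for Amn, and Al was next to Pb for Lrp2, Amn, Dab2 and Clcn5. For Cubn, Al stood lowest and Pb next. Few neighbours in these orders were apart by more than the larger of their SDs. Amn with Pb was above Al by 2.09 SD and Amn with W above Ta by 2.08 SD, while Dab2 with Al was above Pb by 1.03 SD and Clcn5 with Al above Pb by 1.27 SD. All other neighbouring means lay within 1 SD of each other.

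Marker lists of other cell types and segments differed in the same comparisons, in both directions. Of all tested genes 24.5% were called higher and 29.2% lower with Pb, and 12.8% and 12.4% with Al. With Pb, 8 of 8 podocyte markers, 9 of 10 endothelial markers and 8 of 9 fibroblast and pericyte markers fell, and the summed podocyte markers were 47.1 to 99.7 CPM with Pb, against 185 to 430 CPM with Ta. Of the 18 S1 and S2 markers 9 fell and 1 rose with Pb, and their summed level was 12400 to 15406 CPM with Pb, against 12468 to 17038 CPM with Ta, so that the sums overlapped. Of 10 markers of the S3 segment, the last stretch of the proximal tubule, 4 rose and 1 fell with Pb, and their summed level was 13874 to 20036 CPM with Pb, against 4111 to 12635 CPM with Ta. Of 11 collecting duct markers 4 rose and 1 fell, and of 5 adipocyte markers 3 rose. With Al, 7 of 8 podocyte, 7 of 10 endothelial, 5 of 9 fibroblast and pericyte and 4 of 18 S1 and S2 markers fell and 1 of the 18 rose. With the S1 and S2 mean as a covariate, Amn, Dab2 and Clcn5 kept their Pb calls, while Lrp2 (-0.45, adjusted p = 0.143) and Cubn (-0.30, adjusted p = 0.0715) did not. With Al the calls of Dab2 (-0.44, adjusted p = 0.0587) and Clcn5 (-0.67, adjusted p = 0.0611) were lost, and with Co that of Clcn5 (-0.59, adjusted p = 0.0837). Cubn (-0.37, adjusted p = 0.0386 by edgeR) and Amn (0.66, adjusted p = 0.00176) kept their Al calls. Amn was called higher with Co in this fit (0.54, adjusted p = 0.0103 by edgeR). Every Pb and every Al library had an S1 and S2 mean below every Ta library. For these metals such a fit cannot fully separate the marker level from the metal. The part of the other cell types was not tested.

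The size balance also differed in the same comparisons. With it as a covariate, no member was called against Ta with any metal. For Pb the log2 fold changes were then 0.73 for Lrp2, -0.16 for Cubn, 0.96 for Amn, -0.45 for Dab2 and 0.01 for Clcn5, with adjusted p of 0.0519 for Amn and 0.198 or more for the others. Amn then had log2 fold changes of 0.31 with W, 0.45 with Co, 0.55 with Al and 0.41 with DU (adjusted p of 0.161 to 0.329). Since the balance did not overlap between Ta and the Co, Al, Pb or DU groups, such a fit cannot fully separate the balance from the metal.

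**Figure D4:**
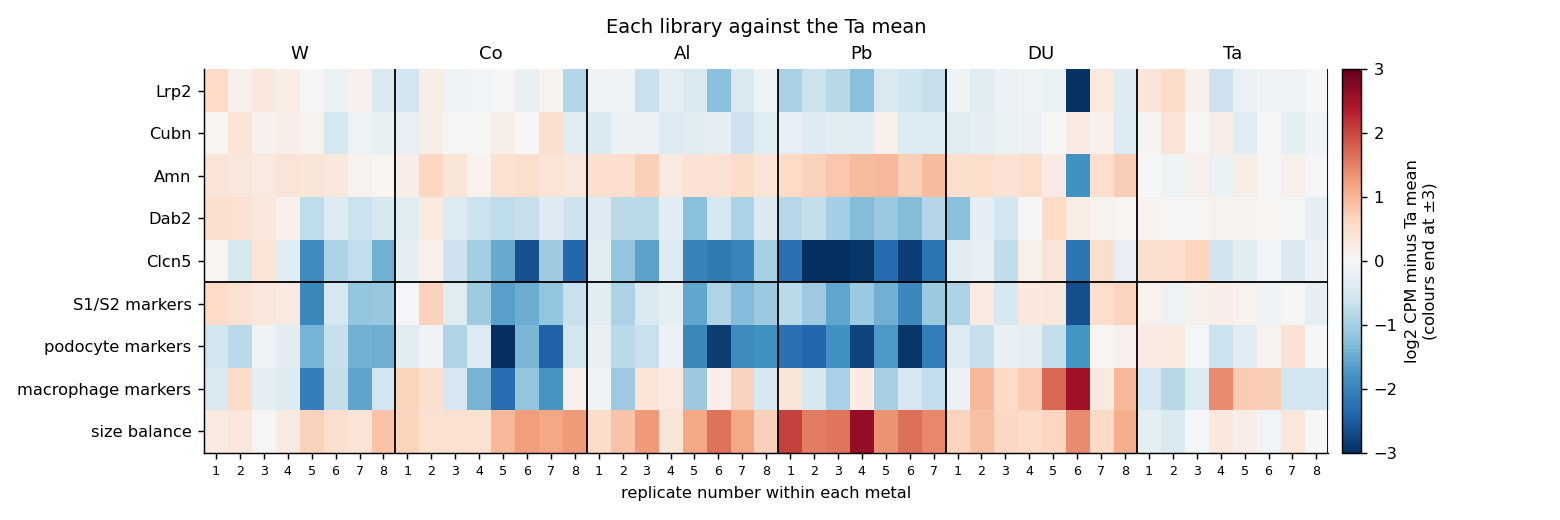
Heat map of the 47 libraries (columns, grouped by pellet metal with Ta at the right) for the 5 genes, the marker means and the size balance (rows), coloured by log2 CPM minus the Ta mean of the row. Pb libraries show low Clcn5, Dab2 and podocyte markers with high Amn and size balance, and DU replicate 6 shows low Lrp2, Amn and S1 and S2 markers with high macrophage markers.

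Within groups the 5 genes did not vary as 1 set. Over the 47 libraries, with each group's mean removed, 10 pairs of genes and 10 relations to the S1 and S2 marker mean or the size balance were tested by permutation within groups (100000 draws, two-sided, Benjamini-Hochberg over the 20). Only 2 of the 10 pairs passed by Pearson's r. Lrp2 and Clcn5 correlated at r = 0.67 and rho = 0.64 (adjusted permutation p = 5.00e-05 for both, the smallest that the draws can give after adjustment here), and r was 0.58 without the 2 libraries farthest from the median in Lrp2, positive within all 6 groups (0.21 to 0.91). Dab2 and Clcn5 correlated at r = 0.48 and rho = 0.56 (adjusted permutation p = 0.0104 and 0.000567), with r = 0.53 without 2 libraries and 0.08 to 0.84 within the 6 groups. Cubn and Dab2 reached r = 0.36 and rho = 0.36, with adjusted permutation p of 0.0543 and 0.0495.

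The receptor genes Lrp2, Cubn and Amn showed no pair past the threshold over all 47 libraries. Cubn and Amn had r = -0.22 and rho = -0.03 (adjusted permutation p = 0.240 and 0.869), with r between -0.81 in Ta and 0.46 in Co kidneys. Lrp2 and Amn had r = 0.76 and rho = 0.35 (adjusted permutation p = 0.0543 and 0.0981), but r fell to 0.33 without DU replicate 6 and Al replicate 6, so the r of all 47 rests on those libraries. Lrp2 and Cubn had r = 0.07 and rho = 0.30 (adjusted permutation p = 0.748 and 0.0981), and r was 0.45 without the same 2 libraries. Without Ta replicates 4 and 6 and DU replicates 5 and 6 this pair passed, with r = 0.57 and rho = 0.57 over 43 libraries (adjusted permutation p = 0.000267 and 0.000343).

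The size balance ran against Lrp2 at r = -0.66 and rho = -0.73, and against Clcn5 at r = -0.73 and rho = -0.76 (adjusted permutation p = 5.00e-05 for each), negative within all 6 groups, from -0.93 to -0.34 for Lrp2 and from -0.94 to -0.14 for Clcn5. Without Pb replicate 4 and Al replicate 6, r was -0.64 for Lrp2 and -0.77 for Clcn5. For Amn it was -0.20 and for Cubn -0.12 (adjusted permutation p = 0.220 and 0.502). Dab2 passed by rho only (r = -0.29, rho = -0.36, adjusted permutation p = 0.0852 and 0.0402). The S1 and S2 marker mean ran with Clcn5 at r = 0.75 and rho = 0.68 (adjusted permutation p = 5.00e-05 for both) and with Dab2 at r = 0.60 and rho = 0.72 (adjusted permutation p = 0.00428 and 0.000120), and without DU replicate 6 and W replicate 5 r was 0.65 and 0.79. Amn passed by r only (r = 0.57, rho = 0.28, adjusted permutation p = 0.0422 and 0.113) and had r = 0.32 without those libraries. Lrp2 did not pass (r = 0.50, rho = 0.24, adjusted permutation p = 0.0543 and 0.187) and had r = 0.17 without them. Nor did Cubn (r = -0.03, rho = 0.10, adjusted permutation p = 0.880 and 0.639).

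**Figure D5:**
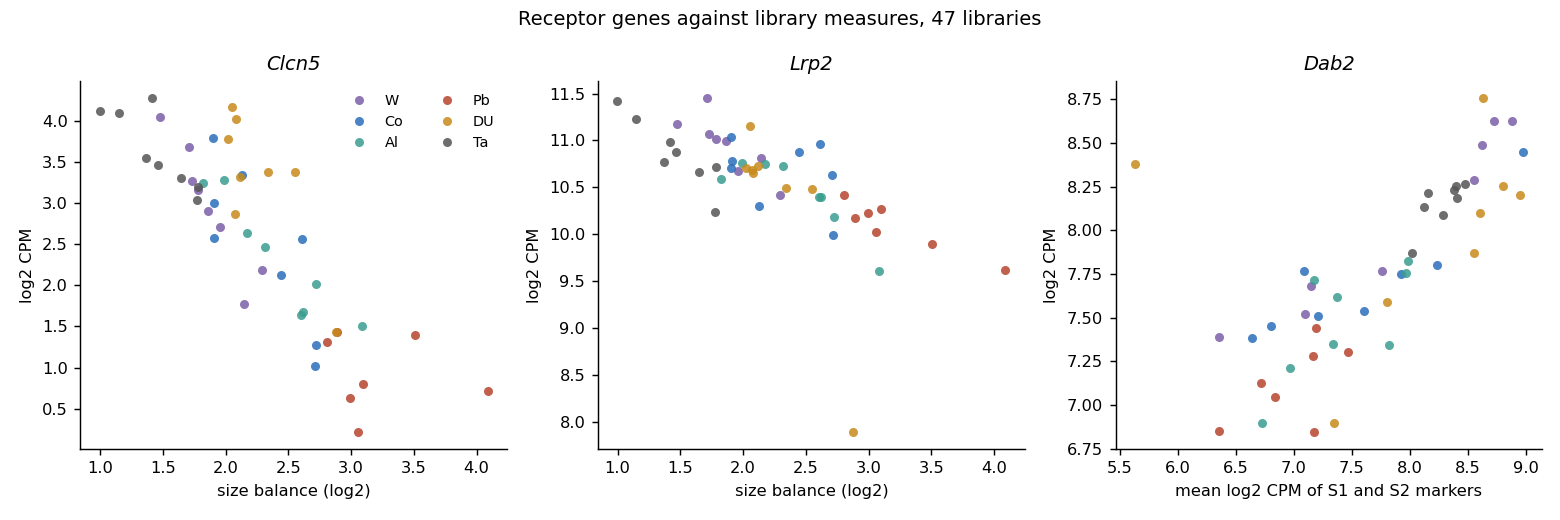
Log2 CPM of Clcn5 and of Lrp2 (vertical axes) against the size balance, and of Dab2 against the mean log2 CPM of the S1 and S2 markers (horizontal axes), with 1 point per library for 47 libraries coloured by pellet metal. Group means are not removed here. Clcn5 and Lrp2 are lower in libraries with a higher size balance, where the Pb libraries lie, and Dab2 is higher in libraries with higher S1 and S2 markers.

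For each gene, genes from the 5 with the most similar log2 CPM over the 47 libraries, of 9100 with a mean of at least 10 CPM, are given as a description. Lrp2 ran most closely with Ak4, Oxct1 and Hnf4a (r = 0.94 each), then Mmut and Phkb (r = 0.92 each). Amn ran with Mgst3 (r = 0.93), Csrp2, Chchd10, Metrn and Glod5 (r = 0.91 for the last). Dab2 ran with Abhd17c and Net1 (r = 0.89 each), Bmp2k and Nav2, and Clcn5 with Atrn and Myo10 (r = 0.94 each), Tgoln2, Atp6v1a and Fyco1. Cubn had no gene as close: its nearest was Tpr (r = 0.68), followed by Pcsk5, Ubap2l and Uso1. No gene stood among the nearest 5 of more than 1 member, and all these values share the same libraries and group differences.

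The machinery that serves the receptors was described by lists of other genes, read at the same threshold, with the share of all genes called in each comparison as given above. All values of these lists come from the fit without covariates. With the size balance as a covariate, 482 genes were called with Pb instead of 8517 and 0 with W instead of 283. Without Ta replicates 4 and 6, 1 gene was called with W. The list genes were not read from these fits. Of 20 endocytic adaptor and coat genes, 17 passed with Pb, 5 higher and 12 lower, with a median log2 fold change of -0.42. The clathrin heavy chain gene Cltc fell with Pb to 243 CPM, against 458 CPM with Ta (-0.91 ± 0.10, adjusted p = 7.42e-10 by edgeR), whereas the light chain genes Clta (0.50 ± 0.06) and Cltb (0.74 ± 0.08) rose. Of the AP-2 adaptor complex, the large subunit gene Ap2b1 was lower (-0.93 ± 0.11) and the small subunit gene Ap2s1 higher (1.00 ± 0.10), and the membrane-bending protein gene Fcho2 was lower (-1.17 ± 0.14). With W 2 of the 20 rose and none fell, with Co 12 passed (4 higher and 8 lower), with Al 13 (4 and 9) and with DU 8 (3 and 5). Clta and Ap2s1 were called higher with all 5 metals, with W at adjusted p of 0.0349 and 0.0414 by edgeR.

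Endosome trafficking genes were mostly lower where they passed. Of 20 such genes, 15 passed with Pb (2 higher and 13 lower), 6 with Co (1 and 5), 6 with Al (0 and 6), 4 with DU (0 and 4) and none with W. Rab5b, an early endosome GTPase gene, fell by 1.19 with Pb, by 0.58 with Co and by 0.50 with Al on the log2 scale, and the recycling endosome gene Rab11a rose by 0.55 with Pb and 0.34 with Co. Ocrl, the inositol phosphatase gene mutated in Lowe syndrome and in some human patients with Dent disease, fell with Co by 1.06 ± 0.20 (adjusted p = 0.00021 by edgeR). Vps35, a subunit of the retromer that returns receptors from endosomes, fell by 0.66 with Pb, 0.35 with Al and 0.28 with DU.

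Endosome acidification, the process in which ClC-5 takes part, was divided. Of 23 genes 20 passed with Pb, 9 higher and 11 lower, with a median log2 fold change of 0.13. The related exchanger gene Clcn3 fell by 1.71 ± 0.19 with Pb, the brush border sodium/proton exchanger gene Slc9a3 by 1.87 ± 0.36 and the proton pump's catalytic subunit gene Atp6v1a to 48.1 CPM, against 135.7 CPM with Ta, whereas small pump subunit genes Atp6v0b (1.01 ± 0.09), Atp6v1g1 (0.72 ± 0.07) and Atp6v1f (0.68 ± 0.10) rose. Clcn3 fell also with Co (0.58) and with Al (0.71), and Atp6v0b rose with all 5 metals (0.32 with W, 0.45 with Co, 0.66 with Al and 0.67 with DU). The W call of Atp6v0b had an adjusted p of 0.0466 by edgeR. With Co 10 passed (8 higher and 2 lower), with Al 9 (5 and 4), with DU 4 (3 and 1) and with W 1, Atp6v0b.

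Of 17 lysosomal genes 7 passed with Pb (2 higher and 5 lower), 3 with Co, 2 with Al and none with W or DU. The cathepsin gene Ctsl rose with Pb to 2898 CPM, against 1702 CPM with Ta, while Scarb2, the lysosomal membrane receptor gene, fell by 1.27 with Pb, 0.70 with Co and 0.66 with Al. Of 14 genes of cargo and vitamin handling 13 passed with Pb (5 higher and 8 lower), 4 with Co (3 and 1), 9 with Al (4 and 5), 4 with DU (4 and 0) and 1 with W. The vitamin D receptor gene Vdr fell with Pb to 14.0 CPM, against 50.4 CPM with Ta (-1.85 ± 0.27), and the transferrin receptor gene Tfrc fell by 1.49. The folate receptor gene Folr1 rose by 0.34 with Pb, 0.30 with Co and 0.22 with Al. Fcgrt, the neonatal Fc receptor that protects albumin and immunoglobulin from degradation, rose with all 5 metals (0.29 with W, 0.40 with Co, 0.45 with Al, 0.68 with Pb and 0.46 with DU). The W call of Fcgrt had an adjusted p of 0.0455 by edgeR. Mt2A, a metallothionein gene, had 1432 ± 1861 CPM with DU and 463 ± 79.8 CPM with Ta (SD, n = 8 each) and passed as higher (1.63 ± 0.34), with a spread among DU libraries larger than their mean.

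Relatives of megalin were mostly lower where they passed the test. Of 13 other genes of the LDL receptor family 10 passed with Pb (1 higher and 9 lower), 3 with Co and 4 with Al (all lower) and none with W or DU. Lrp6, a Wnt co-receptor gene, fell with Pb by 1.49 ± 0.24 and the sorting receptor gene Sorl1 by 1.28 ± 0.16, while Lrp10 rose by 0.18 ± 0.07. Of 11 transcription factor genes of the proximal tubule 8 passed with Pb (2 higher and 6 lower), 2 with Co, 2 with Al, 5 with DU (1 higher and 4 lower) and none with W. In DU kidneys, where none of the 5 receptor genes passed, Hnf4g, a regulator of proximal tubule genes, fell by 1.01 ± 0.29, and Esrra, a regulator of mitochondrial genes, rose by 0.29 ± 0.08. Both values include DU replicate 6, which had the lowest S1 and S2 marker mean, and were not read from a fit without it.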

How the data were processed

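RNA-seq of 47 rat kidneys was used. The authors deposited 1 table of raw gene counts. STAR 2.7.2a, the mRatBN7.2 genome and featureCounts of Subread 1.6.4 are named in the submitters' processing notes. The annotation, the strand setting and how multi-mapping reads were handled are not given in the sources used here, so reads of overlapping or antisense genes could not be separated. Left out were 29 lines without values, from 5 very long genes. Each library's column was matched by the animal code in its title. The 5 genes and all lists were chosen with earlier results of these data known.

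Counts were filtered with filterByExpr, scaled by TMM and fitted in 1 model over all libraries with edgeR 4.0.16 (R 4.3.3), tested two-sided against Ta by the quasi-likelihood F test with Benjamini-Hochberg adjustment and a threshold of 0.05. SE is the absolute log2 fold change divided by the square root of F. The 5 metals without Ta were compared in the same fit. log2 CPM used a prior count of 2. Genes of the lists were named by rule: up to 3 higher and 3 lower with the smallest adjusted p and a mean of at least 1 CPM. Some genes that meet this rule or are among the most similar are not reported here. Alternatives were DESeq2 1.42.0, voom of limma 3.58.1 with sample quality weights, RLE factors, no filter (20685 genes) and a strict filter (1 CPM in 7 libraries, 14338 genes), replicate numbers as a block, 2 covariates, only the groups compared, and fits without certain libraries. Promoters are from RefSeq (GRCr8), where all 5 symbols matched. Scripts were tested on simulated data. Libraries of a group differed beyond sampling noise, with a chi-square per degree of freedom of at least 15.7 over 161 pairs. Taken over all genes, counting error is small beside the spread between libraries of a group, and the tests rest on that spread. Each animal gave 1 library, so animal, tissue piece and library preparation cannot be told apart in it.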

Additional observations from a re-analysis of the deposited data

Results flagged for a closer look

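In 4 of 30 combinations of gene and group, 1 library lay far from the others of its group, where chance gives about 1 in 20. Lrp2 in DU replicate 6 was 238 CPM, with the next library of the group at 1434 CPM. Amn in the same library was 60.9 CPM, with the next at 255 CPM. Cubn in Pb replicate 5 was 447 CPM, with the next at 337 CPM below it, and Dab2 in Co replicate 2 was 350 CPM, with the next at 223 CPM.

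All 5 genes differed among W, Co, Al, Pb and DU when Ta was left out of the contrast, by edgeR's quasi-likelihood F test. Of all tested genes, 53.2% did. The adjusted p were 0.0186 for Lrp2, 0.0132 for Cubn, 0.0253 for Amn, 0.000103 for Dab2 and 1.69e-05 for Clcn5. With the size balance as a covariate the calls of Lrp2, Cubn and Amn were lost (adjusted p of 0.530, 0.0953 and 0.200 by the same test). With the S1 and S2 marker mean as a covariate that of Lrp2 was lost (adjusted p = 0.0695). The cause of the differences among the metals was not tested.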

How the results depend on the processing

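Over 670 refits of single genes against Ta, 576 kept direction and side of the threshold, 41 lost a call with the sign kept, 20 gained one and 33 changed sign. Refits that changed sign and also lost a call are among the 33 only. These were Lrp2 with Pb and Clcn5 with Co, Al and Pb, with the size balance as a covariate. Amn, Dab2, Clcn5 and Lrp2 with Pb and Amn, Dab2 and Clcn5 with Al kept their calls when any 1 library of the compared groups was left out.

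With the size balance as a covariate 0 genes were called with W, 170 with Co, 289 with Al, 482 with Pb and 444 with DU, members called were 0 with Co, 0 with Al and 0 with Pb, and 2 members differed among the 5 metals without Ta. Log2 fold changes of Lrp2 were then 0.56 with Co, 0.40 with Al, 0.73 with Pb and 0.31 with DU, those of Clcn5 0.20, 0.14, 0.011 and 0.98 in the same order, and those of Dab2 0.083 with W and 0.21 with DU. With the S1 and S2 markers as a covariate 62 genes were called with W, 2548 with Co and 2165 with Al, members called were 2 with Al and 3 with Pb, and Dab2 was 0.018 with W and 0.025 with DU. The cause of these shifts was not tested.

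Members called with Co were 2 with RLE factors, 2 with the strict filter, 2 with DESeq2, 2 with voom, 2 with the shared spread estimated without DU library 6 and 3 with only the groups compared. Amn was gained each time, and Dab2 also with only the groups compared. With W, 1 member was called with only the groups compared and 1 without DU library 6 (Amn both times). With DU, 1 was called with voom and 1 without DU replicates 5 and 6, and with Al 2 without Ta replicates 4 and 6, where Cubn and Amn were lost (adjusted p = 0.0749 and 0.0522). All genes called with W numbered 117 without a filter, 562 with the strict filter, 764 with DESeq2, 979 without DU library 6 and 1 without Ta replicates 4 and 6, and with DU 4548 with voom. Dab2 with W was 0.050 with voom and 0.017 without Ta replicates 4 and 6, Lrp2 with W -0.0014 without those replicates, and Cubn with Co -0.023 with voom.

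Leaving out 1 library at a time gave 5 (without W replicate 5) to 602 (without W replicate 3) genes with W, 0 to 2 members with Co and 0 to 1 with DU (1 without DU replicate 6). Log2 fold changes near 0 changed sign for Lrp2 with W (-0.0025 to 0.20), Cubn with W (-0.056 to 0.10), Dab2 with W (-0.12 to 0.047), Cubn with Co (-0.052 to 0.13) and Dab2 with DU (-0.16 to 0.047), none of them called.

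Without centring on group means, r was -0.25 for Amn with Clcn5, 0.17 for S1 and S2 markers with Cubn and 0.38 for size balance with Amn. Without Ta replicates 4 and 6 and DU replicates 5 and 6, r was 0.16 for Cubn with Amn, 0.20 for Amn with Dab2, -0.034 for Amn with Clcn5, 0.13 for S1 and S2 markers with Cubn, 0.23 for size balance with Amn and 0.57 for Lrp2 with Cubn, which then passed, as did size balance with Dab2 (-0.37), while S1 and S2 markers with Amn (0.24) did not.

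Replicate numbers did not pair the libraries: deviations of same-numbered libraries of a metal and Ta had median correlations of -0.10 to 0.07. With the replicate block, members called were 0 with W, 1 with Co, 4 with Al, 5 with Pb and 0 with DU, all 5 members differed among the metals, and genes called were 317, 4288, 4138, 8507 and 2387 in the order W, Co, Al, Pb, DU. The spread between libraries of a group, more than depth, limits the precision.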
